A study of Homo sapiens with 18 samples.

Results

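G3BP1 RNA immunoprecipitates (RIPs) and input RNA were compared on Affymetrix exon arrays to measure how far arsenite changed the RNA recovered with G3BP1 beyond the change of total RNA in the same cells. The quantity is a difference of differences: the stress change of the G3BP1 RIP minus the stress change of input. It used 12 of the 18 arrays of the series, with 3 biological replicates in each of 4 groups. The groups were the G3BP1 RIP from cells given 500 µM arsenite for 30 min (stressed RIP), the G3BP1 RIP from cells given the vehicle DMSO (unstressed RIP), and the lysate RNA of cells given arsenite (stressed input) or DMSO (unstressed input). All came from U251-MG, an established human astrocytoma line, and no control-antibody RIP was used here. The other 6 arrays, TIAR RIPs, entered the fit and share its estimate of the spread.

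G3BP1 is a cytoplasmic RNA-binding protein that nucleates stress granules, the assemblies of stalled mRNA and protein that form when translation initiation stops. Arsenite causes such a stop through phosphorylation of the initiation factor eIF2 alpha, and mRNA that leaves polysomes can then bind G3BP1 and its partners, among them CAPRIN1 and UBAP2L. A RIP recovers RNA bound directly or through other proteins, in granules or outside them.

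Values are log2 signals of transcript clusters, the array's gene-level units, and a value of 1 is a doubling. A change beyond input is positive where the RIP gained relative to input with arsenite, whether the RIP went up, input went down or both. The values describe the make-up of an RNA sample and carry no information on its amount, and fewer cells or less RNA per cell cannot be told apart. Transcript clusters were called where the limma test, adjusted over all 22011 of them, gave an adjusted p under 0.05. The p-values measure the spread between 3 arrays per group.

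Of the 12 arrays, 1 in the unstressed RIP and 1 in stressed input stood apart from their groups. Replicate 3 of the unstressed RIP had an upper quartile of 9.45, against 9.94 and 9.92 for the other replicates of its group. Replicate 1 of stressed input had an upper quartile of 9.17, against 9.54 and 9.57 for the others. Both are less bright arrays, in groups that enter the difference with a negative sign. The main counts and the largest changes are therefore given with all arrays and without both, and some other values with all arrays only. The other 10 arrays had upper quartiles between 9.54 and 9.94. Of 16 astrocyte and glioma markers, 9 were at or above the median of all transcript clusters in unstressed input. The intermediate filament gene VIM was at 12.95, the hyaluronan receptor gene CD44 at 11.71 and the glial filament gene GFAP at 8.45, while the water channel gene AQP4 was at 4.78. Of 14 neuron markers 4 reached that median, the neurofilament gene NEFL at 13.35 among them. Of 14 myeloid markers 1 did, and of 12 blood and endothelial markers 1. Among 10 epithelial markers 5 did, with a highest level of 9.04.

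Arsenite raised 3137 of 22011 transcript clusters in the G3BP1 RIP beyond input (14.3%) and lowered 584 (2.65%). Without both arrays that stand apart, 2887 were higher (13.1%) and 2155 lower (9.79%). The higher calls were largely shared between these fits: 2664 were in both, 84.9% of the calls with all arrays and 92.3% of those without both. Of the lower calls 533 were in both, 91.3% of those with all arrays and 24.7% of those without both. The number called lower thus moved more with the 2 arrays than the number called higher. At the level of genes, with 1 transcript cluster, the brightest, for each of 14232 genes, 2421 were higher (17.0%) and 319 lower (2.24%), and without both arrays 2219 (15.6%) and 1406 (9.88%).

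The higher transcript clusters had a median change beyond input of 0.84 on the log2 scale (0.28 to 3.38), and 1017 of them (32.4%) at least doubled relative to input. The lower ones had a median of -0.68 (-2.98 to -0.29), and 126 (21.6%) fell to 0.5 times or less. The median standard error was 0.17 in both. Over all transcript clusters the median change beyond input was 0.047, and 0.018 without both arrays. When the difference was formed from 1 array per group, 3059 of the higher calls (97.5%) and 480 of the lower calls (82.2%) had the same sign in all 81 possible choices of arrays. The same arrays made the calls, so these shares are largely set by the selection and are given as a description. Over all transcript clusters, 17.7% were higher and 3.17% lower in all 81 choices.

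**Figure D1:**
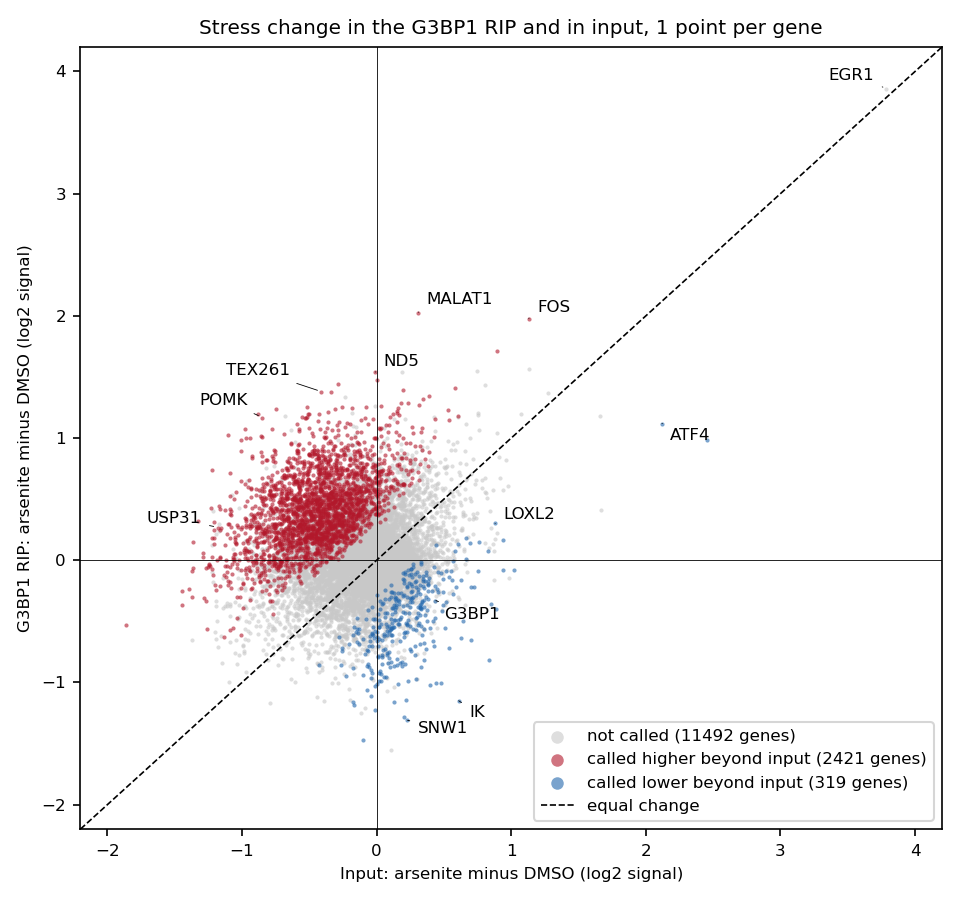
Stress change (arsenite minus DMSO, log2 signal) of the G3BP1 RIP on the vertical axis against that of input on the horizontal axis, with 1 point per gene from the means of 3 arrays per group. The 2421 genes called higher beyond input (red) lie above the line of equal change and the 319 called lower (blue) below it, while EGR1 lies close to the line at 3.86 in the RIP and 3.79 in input.

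A gain beyond input can come from either arm, and both contributed. Of the 3137 higher transcript clusters, 1023 (32.6%) were called higher in the RIP with no call in input, and 1122 (35.8%) were called lower in input with no call in the RIP. A further 570 (18.2%) were higher in the RIP and lower in input, and 383 (12.2%) were called in neither arm. Losses beyond input lay mostly in the RIP. Of the 584 lower transcript clusters, 327 (56.0%) were called lower in the RIP with no call in input, 126 (21.6%) higher in input with no call in the RIP, and 41 (7.0%) lower in the RIP and higher in input. Without both arrays the 2887 higher ones included 838 with the RIP alone higher, 1086 with input alone lower and 660 with both, and the 2155 lower ones included 1265 with the RIP alone lower. Single comparisons in these arms had their own backgrounds: 10.4% of transcript clusters were higher and 4.08% lower in the RIP, and 2.52% were higher and 11.2% lower in input. Without both arrays these shares were 11.1% and 13.7% in the RIP, and 7.07% and 13.4% in input.

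The direction of the change ran against the enrichment in unstressed cells. Transcript clusters called higher beyond input had a median RIP-minus-input value of 0.54 in stressed and -0.29 in unstressed cells. Those called lower had medians of -0.04 in stressed and 0.73 in unstressed cells. Without both arrays the medians were 0.42 and -0.21 for the higher set, and 0.02 and 0.83 for the lower set. These values share arrays with the change itself and are given as a description. Of the 3137 higher transcript clusters, 414 (13.2%) were lower in the RIP than in input without stress and higher with it. Of the 584 lower ones, 26 (4.5%) went the other way, and 229 (39.2%) were enriched in the RIP without stress and not called different from input with it. Without both arrays these counts, in the same order, were 413 of 2887 (14.3%), 170 of 2155 (7.9%) and 671 of 2155 (31.1%). Over all transcript clusters 29.3% were higher and 15.2% lower in the RIP than in input with stress, and 20.7% and 19.2% without it.

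The 12 largest gains among brighter genes that were also called without both arrays were LRRC8B, SVBP, POMK, TMTC1, SPPL3, BTBD6, LIFR, MMD, PLAGL2, EI24, UBL3 and TEX261. POMK (transcript cluster 3096545), a kinase that phosphorylates O-mannose on alpha-dystroglycan, had log2 signals of 10.45, 10.39 and 10.41 in the stressed RIP and 9.43, 9.46 and 8.86 in the unstressed RIP, and 9.34, 9.98 and 9.84 in stressed input and 10.54, 10.56 and 10.61 in unstressed input. All stressed RIP arrays lay above all unstressed RIP arrays, and all stressed input arrays below all unstressed ones. The change beyond input was 2.02 ± 0.23 (SE, adjusted p = 5.1e-05), a 4.06-fold gain, and 1.64 without both arrays. LRRC8B (2345880), a subunit of the volume-regulated anion channel, had 10.35, 10.24 and 10.15 in the stressed RIP and 9.07, 9.28 and 8.81 in the unstressed RIP, and 8.55, 9.73 and 9.64 in stressed input and 10.25, 10.20 and 10.12 in unstressed input. It showed the same separation in both arms, with a change of 2.07 ± 0.34 (adjusted p = 7.1e-04) and 1.57 without both arrays. TMTC1, an O-mannosyltransferase of the endoplasmic reticulum that acts on cadherins, gained 1.99 ± 0.32 (1.42 without both), and SPPL3, an intramembrane protease of the Golgi, 1.98 ± 0.30 (1.47).

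TEX261 (2558924), a membrane protein gene, had 11.23, 11.25 and 11.05 in the stressed RIP and 9.93, 10.07 and 9.40 in the unstressed RIP, and 11.52, 11.79 and 11.82 in stressed input and 12.05, 12.17 and 12.15 in unstressed input. It was low in the RIP relative to input in both conditions (-0.53 ± 0.14 with stress and -2.32 ± 0.14 without), and arsenite narrowed that gap by 1.79 ± 0.20 (adjusted p = 4.2e-05, 1.49 without both arrays). EI24, a p53-induced protein of the endoplasmic reticulum that acts in autophagy, gained 1.85 ± 0.33 (1.30 without both). The transcription factor gene PLAGL2 gained 1.86 ± 0.24 (1.52), and BTBD6, an adaptor of cullin ubiquitin ligases, 1.97 ± 0.43 (1.31). MMD, a membrane protein of the progestin and adipoQ receptor family, gained 1.88 ± 0.16 (1.70). For 4 of the 12 (SVBP, LIFR, BTBD6 and UBL3), the change was about 1.5 times as large or more with replicate 3 of the unstressed RIP and replicate 1 of stressed input than without them. SVBP, which partners the vasohibin tubulin carboxypeptidases, had 9.72, 9.50 and 9.46 in the stressed RIP and 8.89, 9.09 and 7.49 in the unstressed RIP, and 7.73, 9.38 and 9.46 in stressed input and 9.90, 9.67 and 9.94 in unstressed input. Each of those 2 arrays was well below the rest of its group, and the change was 2.05 ± 0.58 (adjusted p = 0.0246) with all arrays and 0.99 without both. LIFR, a receptor subunit for leukaemia inhibitory factor, changed by 1.94 ± 0.43 and 1.20 without both, and UBL3, a membrane-anchored ubiquitin-fold protein, by 1.81 ± 0.37 and 1.20.

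**Figure D2:**
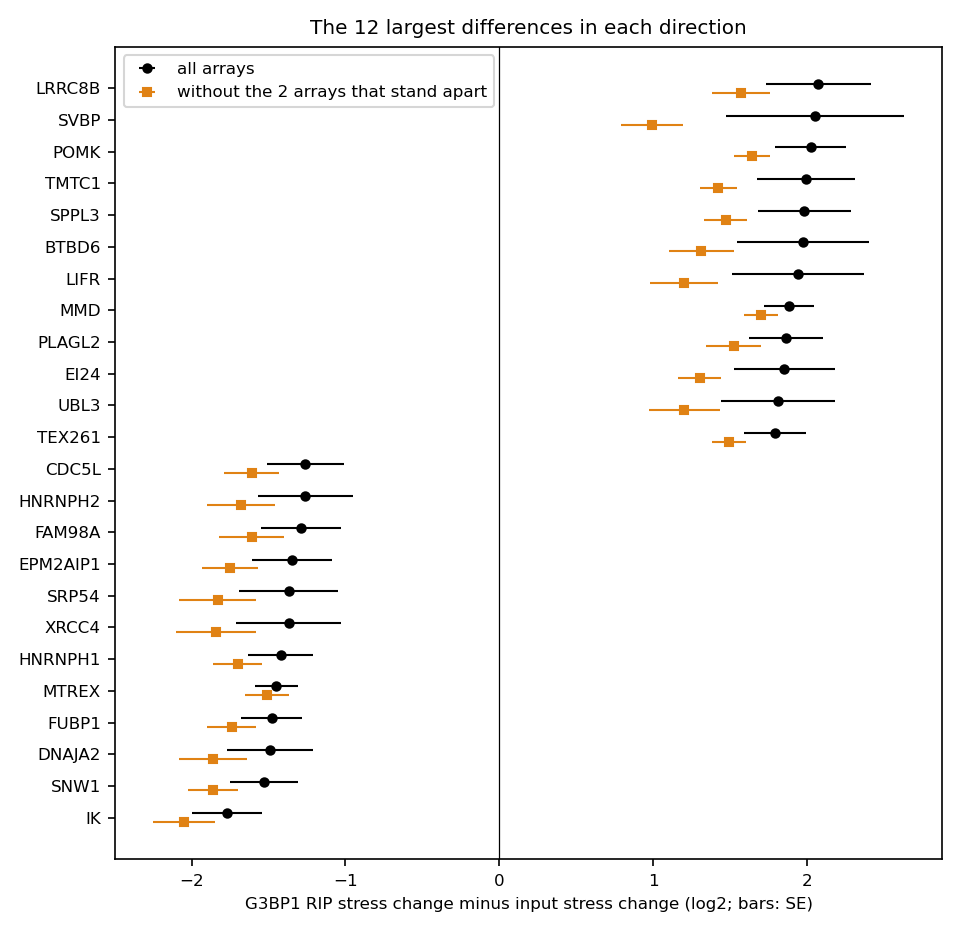
Change beyond input (log2, point with a bar of 1 SE) for the 12 largest gains and 12 largest losses, with all arrays and without the 2 arrays that stand apart. Gains run from 1.79 for TEX261 to 2.07 for LRRC8B and are smaller without both arrays, most of all for SVBP (0.99), while losses such as IK are larger without them (-2.05, against -1.77).

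Other large gains differed in which arm carried them. EIF4EBP2, a repressor that binds the cap-binding protein eIF4E, had 11.14, 10.91 and 10.89 in the stressed RIP and 9.88, 9.92 and 9.55 in the unstressed RIP. Its input values were 12.11, 12.09 and 12.15 in stressed input and 12.71, 12.55 and 12.59 in unstressed input. The RIP rose and input fell without overlap between stressed and unstressed arrays, for a change beyond input of 1.70 ± 0.15 (adjusted p = 9.1e-06) and 1.58 without both arrays. USP31, a deubiquitinase, had 10.69, 10.70 and 10.68 in the stressed RIP and 10.43, 10.45 and 10.38 in the unstressed RIP, a RIP change of 0.27 ± 0.10 (adjusted p = 0.0881) that was called without both arrays (0.25, adjusted p = 0.00353). Its input values were 9.23, 9.65 and 9.71 in stressed input and 10.73, 10.73 and 10.66 in unstressed input, a change of -1.18 ± 0.10 (adjusted p = 5.7e-06), so that the larger share of the gain of 1.45 ± 0.14 (1.28 without both) lay in input. The Mediator gene MED13L had changes of -0.25 ± 0.10 in the RIP (adjusted p = 0.11, and -0.30 with adjusted p = 0.00164 without both arrays) and -1.45 ± 0.10 in input, and 1.20 ± 0.14 beyond input (1.01 without both). SLC7A5, the gene of the leucine transporter LAT1, had 12.47, 12.40 and 12.49 in the stressed RIP and 11.65, 11.76 and 11.72 in the unstressed RIP. Its input values were 11.73, 11.70 and 11.75 in stressed input and 12.05, 12.08 and 12.07 in unstressed input. Its arrays were tight in all groups, and the gain of 1.08 ± 0.09 (adjusted p = 5.7e-06) was 1.09 without both arrays.

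The 12 largest losses were IK, SNW1, DNAJA2, FUBP1, MTREX, HNRNPH1, XRCC4, SRP54, EPM2AIP1, FAM98A, HNRNPH2 and CDC5L, of which 4 (SNW1, HNRNPH1, HNRNPH2 and CDC5L) were in the list of splicing factors. IK (2831932), a spliceosome component, had 9.21, 9.13 and 9.11 in the stressed RIP and 10.50, 10.36 and 10.05 in the unstressed RIP, and 9.0, 9.56 and 9.39 in stressed input and 8.73, 8.65 and 8.73 in unstressed input. It was lower in every stressed RIP array than in any unstressed one, higher in every stressed input array than in any unstressed one, and its change beyond input was -1.77 ± 0.23 (adjusted p = 1.4e-04), or -2.05 without both arrays. SNW1 (3573261), a spliceosome protein that also binds nuclear receptors, had 8.87, 8.55 and 8.65 in the stressed RIP and 10.19, 10.12 and 9.69 in the unstressed RIP, and 9.05, 9.52 and 9.61 in stressed input and 9.19, 9.12 and 9.19 in unstressed input. The RIP arrays separated, the input arrays overlapped, and SNW1 was below input with stress (-0.70 ± 0.16) and above it without (0.83 ± 0.16). The change was -1.53 ± 0.22 (adjusted p = 3.2e-04), and -1.86 without both. MTREX (2809885), the RNA helicase of the nuclear exosome, had 9.15, 9.35 and 9.11 in the stressed RIP and 10.22, 10.19 and 10.22 in the unstressed RIP, and 9.27, 9.50 and 9.48 in stressed input and 9.17, 8.98 and 8.78 in unstressed input. Both arms separated, and here the array that stands apart in the RIP lay with its group, with a change of -1.45 ± 0.14 (adjusted p = 1.5e-05) and -1.51 without both.

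HNRNPH1, which binds G-rich RNA and regulates splicing, had 11.07, 11.13 and 10.98 in the stressed RIP and 12.20, 12.17 and 11.86 in the unstressed RIP, a RIP change of -1.02 ± 0.15. Its change beyond input was -1.42 ± 0.21 (-1.70 without both), and that of its close relative HNRNPH2 -1.26 ± 0.31 (-1.68). Probes of such near-identical genes may share signal, so these values may not be independent. FUBP1, a single-strand DNA- and RNA-binding regulator of MYC, changed by -1.48 ± 0.20 (-1.74), and the cochaperone gene DNAJA2 by -1.49 ± 0.28 (-1.86). XRCC4, a factor of DNA end joining, changed by -1.37 ± 0.34 (-1.84), and SRP54, the signal sequence-binding subunit of the signal recognition particle, by -1.37 ± 0.32 (-1.83). The laforin interactor gene EPM2AIP1 (-1.35 ± 0.26), FAM98A (-1.29 ± 0.26), whose protein associates with the tRNA ligase complex, and CDC5L (-1.26 ± 0.25), a spliceosome core gene, were at -1.75, -1.61 and -1.61 without both arrays.

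**Figure D3:**
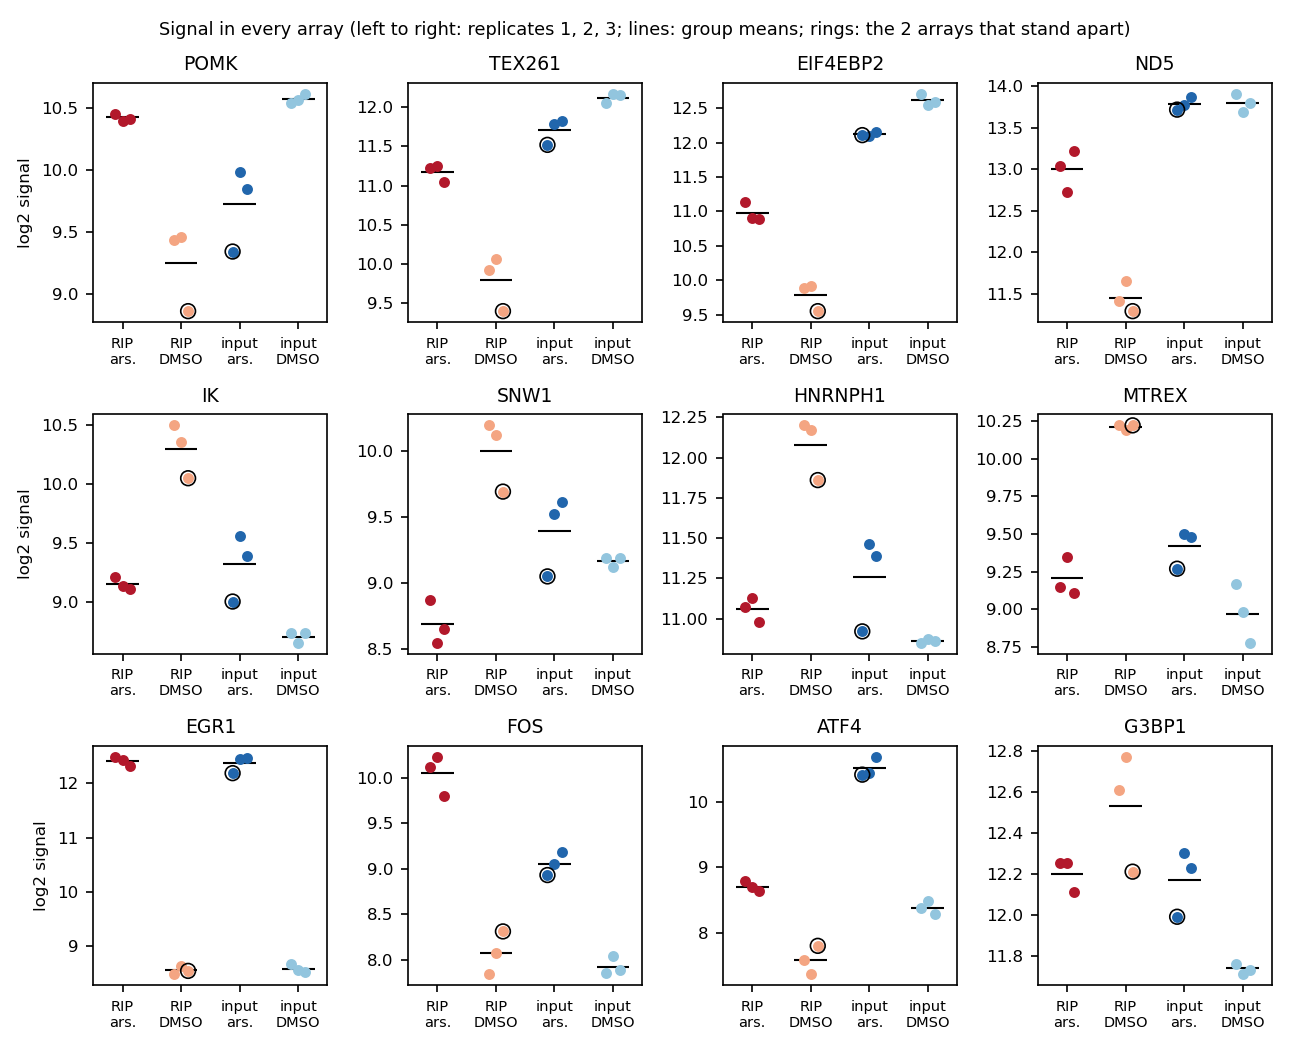
Log2 signal of 12 genes on every array, with the stressed group left of the unstressed group for the RIP and for input, and a bar for the mean of 3 arrays. POMK, TEX261, EIF4EBP2 and ND5 are higher and IK, SNW1, HNRNPH1 and MTREX lower in the stressed RIP than in the unstressed RIP, and the RIP and input move together for EGR1.

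EGR1, FOS and ATF4 rose with arsenite in both arms, and differed in how the RIP change compared with that of input. EGR1 (2830861), an immediate early transcription factor, had 12.49, 12.44 and 12.32 in the stressed RIP and 8.49, 8.64 and 8.55 in the unstressed RIP, and 12.19, 12.45 and 12.47 in stressed input and 8.67, 8.56 and 8.53 in unstressed input. The stressed arrays lay far above the unstressed ones in both arms, and the change beyond input was 0.07 ± 0.13 (adjusted p = 0.758), or -0.02 without both arrays. FOS, also an immediate early transcription factor, had 10.12, 10.23 and 9.80 in the stressed RIP and 7.84, 8.07 and 8.31 in the unstressed RIP, and 8.93, 9.05 and 9.18 in stressed input and 7.85, 8.04 and 7.89 in unstressed input. It rose in both arms, more in the RIP, for 0.85 ± 0.18 beyond input (adjusted p = 0.00527) and 0.90 without both. After quantile normalization it was 0.47 and not called (adjusted p = 0.16). ATF4, a transcription factor whose mRNA stays translated when eIF2 alpha is phosphorylated, had 8.79, 8.71 and 8.64 in the stressed RIP and 7.59, 7.38 and 7.81 in the unstressed RIP, and 10.41, 10.43 and 10.68 in stressed input and 8.39, 8.49 and 8.29 in unstressed input. It rose by 1.12 ± 0.12 in the RIP, less than the 2.12 ± 0.12 in input, and changed by -1.0 ± 0.17 beyond input (adjusted p = 9.3e-04, -0.94 without both arrays).

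Of 38 immediate early genes 6 were higher beyond input and 1 lower, near the 17.0% and 2.24% of all genes. The higher ones were FOS, FOSL2 (0.76 ± 0.12), JUND (0.73 ± 0.12), SRF (0.74 ± 0.10), IER3 (0.42 ± 0.11) and the mRNA decay factor ZFP36 (0.46 ± 0.15). Without both arrays the counts were 6 higher (15.8%) and 7 lower (18.4%), beside 15.6% and 9.88% of all genes. Of 32 ATF4 pathway genes 8 were higher and 3 lower, with 9 higher and 8 lower without both arrays. DDIT3, the transcription factor CHOP, changed by 1.18 ± 0.36, the eIF2 alpha kinase gene EIF2AK4 by 1.20 ± 0.25, ATF5 by 0.90 ± 0.12, and the asparaginyl-tRNA synthetase gene NARS1 by -1.01 ± 0.15. The cytokine gene LIF had 10.36, 10.26 and 10.23 in the stressed RIP and 9.38, 9.37 and 8.97 in the unstressed RIP, and 9.67, 9.51 and 9.58 in stressed input and 9.47, 9.60 and 9.44 in unstressed input. Its RIP arrays separated and its input arrays overlapped, for 0.96 ± 0.14 beyond input (adjusted p = 3.0e-04, 0.87 without both). It was 1 of 4 of 30 AU-rich cytokine and growth mRNAs that were higher, and 0 were lower, with the same counts without both arrays.

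The mRNA of G3BP1 itself was among the losses, with those of other granule proteins. G3BP1 mRNA (2835960) had 12.25, 12.25 and 12.11 in the stressed RIP and 12.61, 12.77 and 12.21 in the unstressed RIP, and 11.99, 12.30 and 12.23 in stressed input and 11.76, 11.71 and 11.73 in unstressed input. The stressed RIP arrays overlapped the unstressed ones only through replicate 3 of the unstressed RIP, input was higher on every stressed array, and the change beyond input was -0.77 ± 0.18 (adjusted p = 0.00791), or -1.02 without both arrays. G3BP1 mRNA stood 0.03 ± 0.13 above input with stress and 0.80 ± 0.13 without it. G3BP2, its paralog, had 9.59, 9.44 and 9.45 in the stressed RIP and 10.07, 10.14 and 9.54 in the unstressed RIP, and a change of -0.50 ± 0.21 that was not called (adjusted p = 0.134); without both arrays it was -0.85 (adjusted p = 4.2e-04). Of 30 stress granule protein genes 7 were lower and 4 higher, beside 2.24% and 17.0% of all genes. Without both arrays 12 were lower and 4 higher, beside 9.88% and 15.6% of all genes. The list's median was -0.12 over all arrays and -0.33 without both, against 0.07 and 0.05 for all genes. The lower members were the cold shock domain gene YBX1 (-1.28 ± 0.39, not called without both arrays), the RNA-binding protein gene TAF15 (-1.02 ± 0.17), the helicase gene DDX3X (-0.89 ± 0.22), G3BP1, the antiviral zinc finger gene ZC3HAV1 (-0.72 ± 0.20), the decay helicase gene UPF1 (-0.55 ± 0.13) and CAPRIN1 (-0.42 ± 0.11), which encodes a G3BP1 partner. IGF2BP2 (0.80 ± 0.16), LARP1 (0.68 ± 0.10), ATXN2L (0.66 ± 0.11) and STAU1 (0.49 ± 0.11), which encode mRNA-binding proteins, were higher. LARP1 had 12.73, 12.64 and 12.71 in the stressed RIP and 12.59, 12.60 and 12.55 in the unstressed RIP, and 11.36, 11.59 and 11.55 in stressed input and 12.07, 12.10 and 12.05 in unstressed input. Its RIP change was not called (adjusted p = 0.405), and input fell.

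TIA1, which encodes a granule protein related to TIAR, changed by -0.38 ± 0.29 (adjusted p = 0.429) and by -0.82 without both arrays (adjusted p = 0.0105). TIAL1, the gene of TIAR, changed by 0.22 ± 0.22 (adjusted p = 0.572) and by -0.13 without both. Of the genes in the series' title, ECT2, a cytokinesis gene, had 10.52, 10.29 and 10.35 in the stressed RIP and 10.75, 10.91 and 10.03 in the unstressed RIP, and 9.77, 10.56 and 10.52 in stressed input and 10.35, 10.20 and 10.33 in unstressed input. Stressed and unstressed arrays overlapped in both arms only through the 2 arrays that stand apart. The change of ECT2 beyond input was -0.17 ± 0.35 (adjusted p = 0.802), and -0.69 without both (adjusted p = 0.072), and was called in neither fit. The mitotic kinase gene AURKB changed by 0.00 ± 0.12 (adjusted p = 0.995) and -0.05 without both.

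Among lists of more than 4 members on the array, mRNA decay factors had the highest share of gains. Of 36 P-body and decay factor genes, 16 (44.4%) were higher beyond input and 1 lower, against 17.0% and 2.24% of all genes. Without both arrays 14 of these 36 genes were higher and 6 lower, against 15.6% and 9.88% of all genes. The median of the list was 0.69 over all arrays and 0.32 without both. The list was bright, with a median signal of 9.85. Among all genes with mean signals of 8.76 to 10.01, 30.5% were higher, and among those of 10.01 to 14.32, 34.1%. All 4 Argonaute genes, whose proteins carry microRNAs, gained: AGO1 by 1.57 ± 0.20, AGO2 by 1.26 ± 0.18, AGO4 by 1.0 ± 0.23 and AGO3 by 0.77 ± 0.21. AGO1 had 10.71, 10.70 and 10.55 in the stressed RIP and 10.23, 10.28 and 9.94 in the unstressed RIP, and 9.45, 10.06 and 10.09 in stressed input and 10.88, 10.97 and 10.93 in unstressed input. The RIP arrays rose a little and did not overlap, the input arrays fell further (-1.06 ± 0.14), and AGO1 was above input with stress (0.79 ± 0.14) and below it without (-0.78 ± 0.14). AGO2 had 10.30, 10.24 and 10.16 in the stressed RIP and 10.19, 10.16 and 9.58 in the unstressed RIP, where stressed and unstressed arrays overlapped, and an input change of -1.0 ± 0.13. Also higher were the Argonaute partners TNRC6A (0.93 ± 0.21) and TNRC6B (0.40 ± 0.13), the deadenylase gene CNOT7 (1.19 ± 0.36), PATL1 (1.11 ± 0.13) and DCP1B (0.78 ± 0.18) of the decapping machinery, LSM5 (1.40 ± 0.45), LSM4 (0.80 ± 0.19) and LSM7 (0.70 ± 0.19), and ZFP36L2 (0.86 ± 0.10) and ZFP36L1 (0.79 ± 0.15), which bind AU-rich elements. EDC4, an enhancer of decapping, was lower (-0.45 ± 0.09). LSM7 and TNRC6B were not called without both arrays. Of the 16 gains, 8 had a RIP called higher and 9 an input called lower.

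Splicing factor genes had more losses than gains. Over all genes 2.24% were lower and 17.0% higher with all arrays, and 9.88% and 15.6% without both. Of 73 splicing factor genes 14 were lower and 3 higher, and without both arrays 39 and 2, with a median of -0.28 over all arrays and -0.46 without both. All 14 lower ones were also called lower in the RIP, beside 208 of the 319 lower genes in all. Beside those above, HNRNPD, which encodes the AU-rich element-binding protein AUF1, had 12.23, 12.23 and 12.13 in the stressed RIP and 13.42, 13.40 and 13.26 in the unstressed RIP, and 12.06, 12.28 and 12.31 in stressed input and 12.33, 12.40 and 12.44 in unstressed input. Its RIP arrays did not overlap, and the change beyond input was -0.99 ± 0.15 (adjusted p = 4.4e-04, -1.12 without both). HNRNPH3 (-0.89 ± 0.20), HNRNPA0 (-0.83 ± 0.15), HNRNPU (-0.83 ± 0.23), RBM25 (-0.83 ± 0.21), SF3A3 (-0.76 ± 0.19) and TRA2B (-0.73 ± 0.13) were lower, and SRSF9 (0.88 ± 0.27), SNRNP25 (0.59 ± 0.17) and HNRNPUL1 (0.36 ± 0.11) higher, SNRNP25 only with all arrays.

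Nuclear RNA processing and ribosome biogenesis genes also had more losses than gains, with 10 of 44 lower and 1 higher, 24 and 1 without both arrays, and a median of -0.19 over all arrays and -0.55 without both. They included the exosome genes MTREX, EXOSC9 (-1.06 ± 0.20) and EXOSC10 (-0.59 ± 0.12), the small subunit processome genes UTP3 (-1.20 ± 0.29) and UTP14A (-0.84 ± 0.19), and GAR1 (-0.94 ± 0.17) of the pseudouridylation complex, while NOP10 of the same complex was higher (0.99 ± 0.23). Of 29 tRNA synthetase genes 4 were lower and 0 higher, and without both arrays 15 and 0. The share of all genes called lower was 2.24% with all arrays and 9.88% without both. NARS1 had 11.09, 11.08 and 10.99 in the stressed RIP and 12.14, 12.08 and 11.81 in the unstressed RIP, and 10.95, 11.24 and 11.15 in stressed input and 11.02, 11.00 and 11.17 in unstressed input. It fell in the RIP on every array while the input arrays overlapped, for -1.01 ± 0.15 beyond input (-1.19 without both), beside LARS1 (-1.02 ± 0.29), HARS1 (-0.62 ± 0.20) and MARS1 (-0.49 ± 0.14). HARS1 lost its call in 11 of 22 alternatives and LARS1 and MARS1 in 5 each, and the number of lower synthetase genes ranged from 1 to 16. Of 36 genes of glycolysis, the pentose phosphate pathway and the citric acid cycle 8 were lower and 0 higher, and without both arrays 15 and 0. Among them were ACO1 (-0.83 ± 0.16), the cytosolic aconitase that also binds iron-responsive elements, IDH1 (-0.62 ± 0.19), TKT (-0.60 ± 0.11), PFKP (-0.57 ± 0.10) and HK2 (-0.54 ± 0.14). These lists were bright, with median signals of 10.73 (splicing), 10.00 (biogenesis), 10.61 (synthetases) and 10.73 (metabolism), and calls in both directions were more frequent among bright genes. In the highest quintile of genes by mean signal, 6.15% were lower with all arrays and 19.5% without both.

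For several other lists, most losses were called only once both arrays were left out, when the share of all genes called lower was itself 9.88%, against 2.24% with all arrays. Of 42 mitosis genes 2 were higher and 2 lower with all arrays, and 2 and 24 without both, with a median of -0.18 over all arrays and -0.53 without both. The kinetochore gene NUF2 was lower (-1.17 ± 0.32) and the survivin gene BIRC5 higher (0.75 ± 0.17). DNA replication genes had 5 of 44 higher and 2 lower, and 5 higher and 21 lower without both arrays. For DNA repair genes the counts were 5 and 1 of 40, and 3 higher and 17 lower without both arrays. Among 29 translation initiation factors 5 were higher, with 3 higher and 11 lower without both arrays, against 2 lower with all. The higher ones were EIF4EBP2, DENR (1.35 ± 0.42), EIF4EBP1 (0.85 ± 0.18), the cap-binding homolog EIF4E2 (0.60 ± 0.15) and EIF1 (0.53 ± 0.16), and the lower ones EIF3E (-0.99 ± 0.30) and EIF2S3 (-0.50 ± 0.12), a subunit of eIF2. DENR (0.72) and EIF1 (0.35) were not called without both arrays. Of 66 heat shock and cochaperone genes 7 were higher and 5 lower, and 5 higher and 20 lower without both arrays. HSPH1 (-1.0 ± 0.17) and HSP90AA1 (-0.79 ± 0.20) were lower and the heat-inducible DNAJB1 (0.77 ± 0.20) higher. Proteasome genes had 2 of 36 higher and 1 lower, and 2 higher and 7 lower without both arrays.

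**Figure D4:**
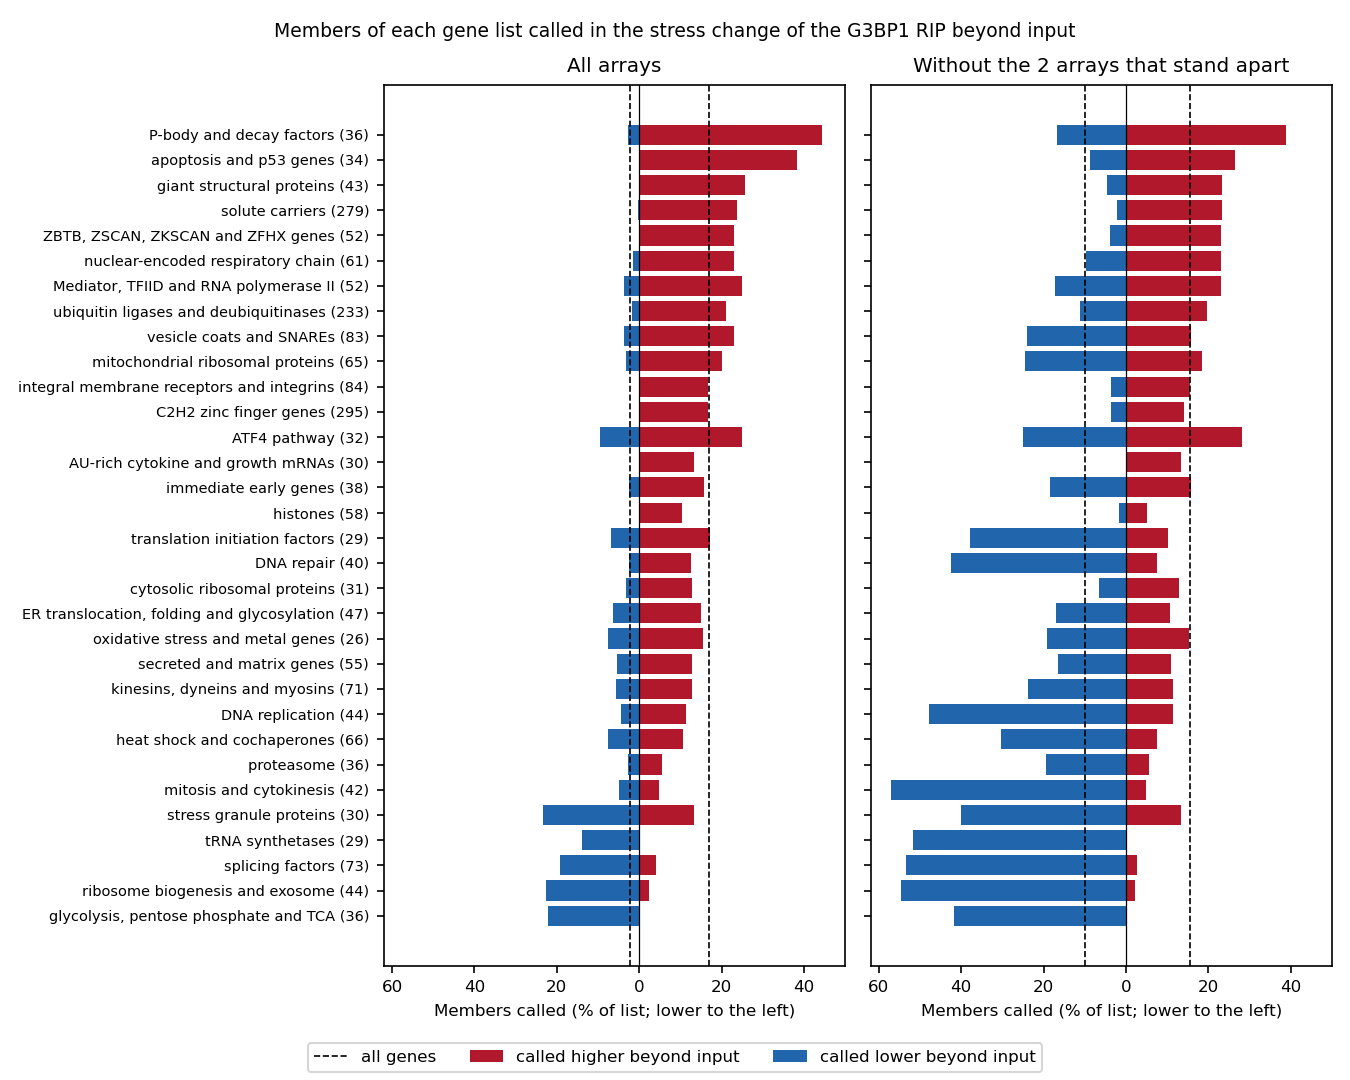
Share of each gene list (number on the array in brackets) called higher (right, red) or lower (left, blue) beyond input, with all arrays and without the 2 arrays that stand apart, and dashed lines at the shares of all genes. Among the lists drawn, P-body and decay factors have the highest share of gains, 44.4%, and splicing, ribosome biogenesis and tRNA synthetase genes extend to the left in both panels, further without both arrays.

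Several gains of membrane and mitochondrial genes lay in the RIP, beside 1229 of the 2421 gains over all genes that had a RIP called higher. The shares of all genes called were 17.0% higher and 2.24% lower, and 15.6% and 9.88% without both arrays. Of 279 solute carrier genes, which encode membrane transporters, 66 (23.7%) were higher and 1 lower, and without both arrays 65 and 6, and 52 of the 66 were called higher in the RIP. SLC44A2 (1.65 ± 0.16), a choline transporter-like protein, SLC25A23 (1.29 ± 0.13), a mitochondrial carrier, and SLC7A5 were among them. The nuclear-encoded respiratory chain had 14 of 61 higher and 1 lower, 14 and 6 without both arrays, and 13 of the 14 rose in the RIP. This list was bright, with a median signal of 10.63. Among all genes with mean signals of 10.01 to 14.32, 34.1% were higher, and 31.3% without both arrays. The share of gains in the list was thus above that of all genes but below that of similarly bright genes. UQCR10, a small subunit of complex III, had 11.89, 11.83 and 11.79 in the stressed RIP and 10.83, 11.10 and 10.88 in the unstressed RIP, and 11.93, 11.96 and 12.14 in stressed input and 12.17, 12.17 and 12.19 in unstressed input. Its RIP arrays did not overlap, the input change was not called (adjusted p = 0.377), and the change beyond input was 1.06 ± 0.16 (1.0 without both). NDUFB7 (1.31 ± 0.30), UQCRQ (1.25 ± 0.31), NDUFB9 (1.07 ± 0.27) and ATP5PF (0.93 ± 0.15) were higher and NDUFA9 (-0.73 ± 0.15) lower. Of 84 receptor and integrin genes 14 were higher (16.7%, near the share of all genes) and 0 lower, with ITGB8, an integrin subunit, at 1.20 ± 0.24, and 0.80 without both arrays. Secreted and matrix genes had 7 of 55 higher (12.7%) and 3 lower, and 6 higher and 9 lower without both arrays. LOXL2, a lysyl oxidase that crosslinks collagen, had 12.44, 12.41 and 12.40 in the stressed RIP and 12.16, 12.01 and 12.18 in the unstressed RIP, and 11.59, 11.63 and 11.67 in stressed input and 10.76, 10.75 and 10.73 in unstressed input. It rose in both arms without overlap, more in input, for -0.58 ± 0.09 beyond input (-0.57 without both).

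Over all genes, 1348 of the 2421 gains had an input called lower and 1229 a RIP called higher. Gains were 17.0% and losses 2.24% of all genes, and 15.6% and 9.88% without both arrays. Of 233 ubiquitin ligase and deubiquitinase genes 49 were higher and 4 lower, 46 and 26 without both arrays, and 38 of the 49 were called lower in input. USP31 was among them. RNF26 (1.49 ± 0.15), USP12 (1.11 ± 0.13) and RNF24 (1.09 ± 0.12) were also higher, with RIP changes of 1.13 ± 0.10, 0.61 ± 0.09 and 0.64 ± 0.09 and input changes of -0.36 ± 0.10, -0.50 ± 0.09 and -0.46 ± 0.09, so that the RIP arm was the larger in each. Of 295 C2H2 zinc finger genes 49 were higher and 0 lower, 42 and 11 without both, a share of gains near that of all genes, and 37 of the 49 fell in input. ZBTB, ZSCAN, ZKSCAN and ZFHX genes had 12 of 52 higher, 11 of them with input lower, among them ZBTB2 (1.29 ± 0.24) and ZFHX3 (0.89 ± 0.10). Of 52 Mediator, TFIID and RNA polymerase II genes 13 were higher and 2 lower, 12 and 9 without both, and 8 of the 13 fell in input, a share near that of all genes. The median signal of this list was 9.99. Among all genes with mean signals of 8.76 to 10.01, 30.5% were higher, and 26.7% without both arrays, larger shares than in the list. MED13L and MED13 (0.98 ± 0.17) of the Mediator kinase module were higher, and POLR2B (-1.01 ± 0.27), the second largest polymerase subunit, was lower.

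Of 34 apoptosis and p53 genes 13 (38.2%) were higher and 0 lower, and 9 higher and 3 lower without both arrays, with a median of 0.50 over all arrays and 0.24 without both. The shares of all genes were 17.0% higher and 2.24% lower, and 15.6% and 9.88% without both arrays. MDM2, the ubiquitin ligase of p53, had 9.72, 9.52 and 9.51 in the stressed RIP and 9.44, 9.47 and 8.95 in the unstressed RIP, and 9.58, 9.99 and 9.89 in stressed input and 10.65, 10.51 and 10.62 in unstressed input. The RIP values did not overlap by a small margin, with a RIP change of 0.29 ± 0.14 (adjusted p = 0.195), input fell on every array, and the change beyond input was 1.07 ± 0.19 (0.78 without both). XIAP (1.01 ± 0.27), ZMAT3 (1.0 ± 0.29), BAX (0.93 ± 0.23), BCL2L1 (0.84 ± 0.13) and PMAIP1 (0.83 ± 0.26, not called at 0.41 without both arrays) were also higher, so members that promote and members that block apoptosis were in the same set. Of 43 genes of giant proteins 11 were higher and 0 lower, 10 and 2 without both arrays, with the dystrophin relative UTRN at 1.23 ± 0.26, the histone methyltransferase KMT2A at 1.16 ± 0.14 and the dynein heavy chain DYNC1H1 at 0.83 ± 0.18. Their median was 0.46 over all arrays and 0.06 without both. BACH1, a repressor of haem oxygenase, was at 1.20 ± 0.23, and 0.91 without both arrays, and SOD1, the cytosolic superoxide dismutase, at -1.02 ± 0.18, and -1.25 without both arrays. They belong to 26 oxidative stress and metal genes, of which 4 were higher (15.4%, near the share of all genes) and 2 lower, and 4 and 5 without both arrays.

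With all arrays, counts nearer the background of all genes, or split between directions, were found for the remaining lists. Without both arrays several of them had a larger share of losses than all genes, among them the vesicle, mitochondrial ribosomal, kinesin and astrocyte lists. The background of all genes was 17.0% higher and 2.24% lower, and 15.6% and 9.88% without both arrays. Vesicle coat and SNARE genes had 19 of 83 higher and 3 lower, and 13 higher and 20 lower without both arrays, with VAMP2 at 1.07 ± 0.16. Mitochondrial ribosomal proteins had 13 of 65 higher and 2 lower, and 12 higher and 16 lower without both arrays, with MRPL23 at 1.21 ± 0.25. Cytosolic ribosomal proteins had 4 of 31 higher and 1 lower, and their median was 0.28 over all arrays and -0.08 without both. Among 47 genes of endoplasmic reticulum translocation, folding and glycosylation 7 were higher and 3 lower, with SYVN1 (0.77 ± 0.12) and STT3A (-0.51 ± 0.12), a catalytic subunit of oligosaccharyltransferase, in opposite directions. Without both arrays the counts of this list were 5 higher and 8 lower. Kinesin, dynein and myosin genes had 9 of 71 higher and 4 lower, and 8 higher and 17 lower without both arrays. Histone genes had 6 of 58 higher and 0 lower, and 3 higher and 1 lower without both arrays. Of the marker lists, the astrocyte and glioma list had 1 of 16 members lower (VIM, -0.37 ± 0.11), or 6 without both arrays. The neuron list had 1 of 14 higher (SYT1), the myeloid list 1 of 14 higher (CD68, 0 without both arrays), the blood and endothelial list 1 of 12 lower (CD3E) and the epithelial list 0 of 10 called.

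MALAT1 and ND5 gained in the RIP and were below input with and without stress. MALAT1 (7385515), a nuclear long noncoding RNA, had 9.68, 9.32 and 9.68 in the stressed RIP and 7.93, 8.15 and 6.52 in the unstressed RIP, and 11.97, 12.19 and 12.22 in stressed input and 11.93, 11.69 and 11.83 in unstressed input. Replicate 3 of the unstressed RIP was far below its group, and the change beyond input was 1.72 ± 0.42 (adjusted p = 0.0102) with all arrays and 1.13 without both. ND5 (4037669), a mitochondrially encoded complex I transcript, had 13.04, 12.73 and 13.22 in the stressed RIP and 11.41, 11.65 and 11.29 in the unstressed RIP, and 13.72, 13.78 and 13.87 in stressed input and 13.91, 13.69 and 13.80 in unstressed input. Its RIP arrays did not overlap, input changed by -0.01 ± 0.12, and the change beyond input was 1.55 ± 0.16 (adjusted p = 3.2e-05, 1.44 without both). In stressed cells these RNAs were at -2.57 ± 0.29 (MALAT1) and -0.79 ± 0.12 (ND5) relative to input, and in unstressed cells at -4.29 ± 0.29 and -2.35 ± 0.12. TUG1, known as a long noncoding RNA but listed as protein-coding in the RefSeq annotation used, gained 0.51 ± 0.11 (0.42 without both). It was at 0.69 ± 0.07 relative to input with stress and 0.18 ± 0.07 without it.

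The share of genes called rose with signal. In the lowest quintile of genes by mean signal over the 12 arrays (2.29 to 6.42), 0.843% were higher and 1.48% lower, and in the highest quintile (10.01 to 14.32) 34.1% and 6.15%. Without both arrays these were 1.44% and 2.67% in the lowest quintile, and 31.3% and 19.5% in the highest. The median change was -0.09 in the lowest quintile and 0.32 in the highest with all arrays, and -0.02 and 0.10 without both. By the length of the gene on the genome, including introns, 12.7% of the shortest quintile and 22.7% of the longest were higher, with medians of 0.02 and 0.18. Without both arrays 12.2% of the shortest and 19.8% of the longest quintile were higher, so the order of the shares stayed, while the medians were 0.08 and 0.05 and lost theirs. The longest quintile had a median change of -0.02 in the RIP and -0.17 in input with all arrays.

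In the TIAR RIP, 144 transcript clusters (0.654%) were called in the change beyond input. That comparison shares the input arrays with the G3BP1 comparison, so the 2 sets of values are given side by side only. The change beyond input was 2.02 ± 0.23 in the G3BP1 RIP and -0.02 ± 0.23 in the TIAR RIP for POMK, 2.07 ± 0.34 and 0.64 ± 0.34 for LRRC8B, -1.77 ± 0.23 and 0.38 ± 0.23 for IK, -1.53 ± 0.22 and 0.24 ± 0.22 for SNW1, and -0.77 ± 0.18 and -0.04 ± 0.18 for G3BP1 mRNA. The stress change of the G3BP1 RIP minus that of the TIAR RIP was 2.04 ± 0.23 for POMK, 1.43 ± 0.34 for LRRC8B, -2.15 ± 0.23 for IK and -1.78 ± 0.22 for SNW1. These genes were chosen by a change that holds the same G3BP1 arrays, so their signs here are largely set by the choice and are given as a description. Over all transcript clusters 8.55% were called higher and 5.05% lower in that difference.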

How the data were processed

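RNA from 18 samples of U251-MG cells was measured on exon arrays, and 12 of them form the comparison. The deposited values are log2 signals per transcript cluster that the authors made by RMA in Affymetrix Expression Console, per the submitters' processing notes. For the software version and for joint normalization of the arrays, nothing is given in the sources used here. Signals were not transformed further.

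Transcript clusters were named from the platform annotation: 14432 of 22011 had 1 symbol, 2408 several and 5171 none, and 14404 of the named ones matched RefSeq (GRCh38.p14, used for names and gene length). The brightest cluster stands for a gene. Means of 6 groups were fitted to all 18 arrays with limma 3.58.1 in R 4.3.3 (lmFit, eBayes, 12 residual and 2.61 prior degrees of freedom), with no filter and no covariate, and the change beyond input was an interaction contrast. P-values are two-sided and adjusted by the Benjamini-Hochberg method over 22011 transcript clusters, and errors are standard errors of the fit. The fit was tested on simulated data.

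Genes were named by rule: up to 12 per direction with the largest change among those called with and without both arrays that stand apart, with a mean signal of at least 7.94; up to 5 per pattern of the arms; up to 4 called members per list, by p; and 10 fixed genes. List members printed beyond these were chosen after their values were seen. The members and the 38 lists were chosen with earlier results of these data known. A protein length could not be used, and the length of the gene on the genome stood in for it. Pairing of the samples by replicate number was not seen in the correlation of their deviations, which cannot exclude it. The main fit treated the arrays as unpaired. The number of arrays limits precision.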

Additional observations from a re-analysis of the deposited data

Results flagged for a closer look

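The stress change of the G3BP1 RIP differed from that of the TIAR RIP for 21 of the 24 genes with the largest changes beyond input, by a contrast of the same limma fit (adjusted p under 0.05 for each). The genes were chosen by a change that holds the same 6 G3BP1 arrays, so the sign of the difference is largely set by the choice and the count is no independent support. The G3BP1 change minus the TIAR change, as log2 ± SE with n = 3 arrays per group, was above 0 for 9 genes that gained beyond input. It was 2.04 ± 0.23 for POMK, 1.82 ± 0.24 for PLAGL2, 1.76 ± 0.33 for EI24, 1.73 ± 0.32 for TMTC1 and 1.56 ± 0.20 for TEX261. For the others it was 1.43 ± 0.34 for LRRC8B, 1.43 ± 0.30 for SPPL3, 1.43 ± 0.16 for MMD and 1.28 ± 0.37 for UBL3. The difference was below 0 for 12 genes that lost beyond input. It was -2.15 ± 0.23 for IK, -1.78 ± 0.22 for SNW1, -1.73 ± 0.14 for MTREX, -1.64 ± 0.32 for SRP54, -1.58 ± 0.25 for CDC5L and -1.56 ± 0.31 for HNRNPH2. For the others it was -1.48 ± 0.20 for FUBP1, -1.44 ± 0.21 for HNRNPH1, -1.40 ± 0.26 for FAM98A, -1.39 ± 0.28 for DNAJA2, -1.19 ± 0.26 for EPM2AIP1 and -1.13 ± 0.34 for XRCC4. For POMK the RIP changes behind the difference were 1.17 ± 0.16 with G3BP1 and -0.87 ± 0.16 with TIAR, and for IK they were -1.15 ± 0.16 and 0.99 ± 0.16. The other 3 genes were not called with all arrays and were called without both arrays that stand apart, SVBP at 0.74, BTBD6 at 0.73 and LIFR at 0.88, against 1.24 ± 0.58, 1.24 ± 0.43 and 1.28 ± 0.43 with all arrays. Groups of 3 arrays are small for a test of single outlying samples, and no result of such a test is given.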

How the results depend on the processing

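Of 22 alternatives (a replicate block, the 4 groups alone, leaving out both arrays, array weights, a robust prior with an intensity trend, 2 filters on low signal, 3 further normalizations and each of 12 arrays left out), none turned a called value among the named genes. Of 167 named and called genes 135 stayed called in all of them and 32 lost the call in at least 1, and of the 24 largest changes SVBP did (adjusted p up to 0.0776). The number called higher stayed between 2235 with the 4 groups alone and 3599 with array weights, and between 2346 and 3513 when 1 array was left out, against 3137. The number called lower depended on the processing: against 584 it was 371 with the 4 groups alone, 2155 without both arrays, 2361 with array weights, 1546 after cyclic loess, 1635 after quantile normalization and 1475 after median centring. With 1 array left out it lay between 416 and 1089, with 1089 without replicate 3 of the unstressed RIP and 935 without replicate 1 of stressed input. Gains made up 84.3% of the calls with all arrays, 57.3% without both, 60.4% with array weights, 63.1% after cyclic loess, 61.2% after quantile normalization, and 65.9% after median centring, which moved the median of all transcript clusters by -0.15. For HBEGF (0.71) and CENPA (0.58), leaving out replicate 3 of the unstressed RIP alone gave 0.47 and 0.38. Some values that were not called changed sign. TIAL1 was at -0.13 without both arrays, -0.13 with array weights, -0.09 after quantile normalization and -0.07 after cyclic loess. EGR1 was at -0.02 without both arrays, -0.08 after median centring and -0.15 after cyclic loess, and with 1 array left out it ranged from -0.02 to 0.12. AURKB was at -0.05 without both arrays, -0.02 with array weights, -0.12 after cyclic loess, -0.03 after quantile normalization and -0.15 after median centring, and with 1 array left out it ranged from -0.05 to 0.05. ECT2 ranged from -0.44 to 0.00 with 1 array left out. G3BP2 and TIA1 were called lower in 7 and 4 alternatives. The medians of the P-body, apoptosis, respiratory chain, splicing, ribosome biogenesis, tRNA synthetase, metabolism and stress granule lists kept their sign in all alternatives, while those of the cytosolic and mitochondrial ribosomal, vesicle, ubiquitin, matrix and solute carrier lists did not. Arrays of the same replicate number showed no steady shared deviation (correlations of deviations from -0.41 to 0.31), and a replicate block gave 2884 higher and 505 lower. Signal near background limits dim genes, where few calls were made.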
